A study of Hydra vulgaris with 15 samples.

Results

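The 70 transcripts described here were more abundant after Zic4 RNA interference (RNAi) than in control polyps in both tissues sampled, the head and the body column of the freshwater cnidarian Hydra vulgaris. They were selected on their measured levels, from 79784 assembled contigs in the table, so their higher level after RNAi is a property of the choice and not a finding. Levels are given as CPM, the estimated reads of a contig per 1000000 estimated reads of its library. A contig was kept if its mean was at least 5 CPM over all 15 libraries, if every RNAi library lay above every control library within the head and again within the body column, and if the ratio of the RNAi mean to the control mean was at least 1.15 in the head and 1.25 in the body column. The polyps were of the Basel1 strain. Control polyps were labelled wild-type and comprised 4 head libraries (replicates 1 to 4) and 3 body column libraries (replicates 2 to 4), and polyps labelled Zic4 RNAi comprised 4 libraries of each tissue. Per the labels, all polyps were starved for 4 days and electroporated 4 times, RNA was taken 1 day after the last electroporation, and 20 polyps were used per condition. What the control polyps were electroporated with is not given in the labels. The source field of each sample reads entire animal, while the tissue field gives head or body column, and the tissue field was used.

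Hydra keeps renewing its tissues throughout life: epithelial cells divide in the body column and are displaced towards the head and tentacles at one end and the foot at the other, where they take on specialised forms. Signalling through Wnt and beta-catenin maintains the head organizer, and tentacles carry battery cells, epithelial cells that house the stinging cells. Zic proteins are zinc finger transcription factors, and the series names Zic4 as a factor that promotes tentacles and holds epithelial identity. RNAi lowers the messenger RNA of a gene through matching double-stranded RNA. The contig IDs were looked up in a RefSeq table of 28925 Hydra genes and 0 matched, so the transcripts are named by ID, without a gene, a function, a sequence or a place in the genome. For the same reason the level of Zic4 and the markers of head and body column cells were not analysed here, and treatment and tissue rest on the labels.

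Library totals lay between 16020872 and 22554240 estimated counts. Nothing in the labels says whether replicates came from separate cultures, so p-values measure the spread between these libraries, which may be technical. Of the 13320 contigs with a mean of at least 5 CPM, 484 (3.63%) had all RNAi heads above all control heads and 1257 (9.44%) had all RNAi body columns above all control body columns. Both conditions were met by 130 contigs. The body column ratio alone removed 34 of these, the head ratio alone removed 3, and both ratios together removed 23. The mirror rule, with RNAi below control in both tissues and the inverse ratios, found 131 contigs. A further 22 were higher in the head and lower in the body column, and 81 were lower in the head but higher in body columns.

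These numbers depended on how libraries were scaled. With TMM factors, a scaling that allows for a few abundant contigs taking up reads, the rule found 207 contigs raised in both tissues, among them all 70, and 63 lowered in both. Scaling by library total instead of TMM moved the median log2 fold change of all 31142 tested contigs between RNAi and control heads from -0.02 to -0.14, and that of the 70 transcripts from 0.86 to 0.74. In body columns the median of the 70 was 0.61 with TMM and 0.55 with library totals, against 0.01 and -0.04 for all tested contigs. Without control head replicate 1 the rule found 107 contigs, which again included all 70.

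At the edge of the rule, the head ratio was 1.153 for GGKF01067491.1 and 1.164 for GGKF01042628.1 just inside, and 1.132 for GGKF01033011.1 and 1.105 for GGKF01071723.1 just outside. The body column ratio was 1.257 for GGKF01009141.1 and 1.265 for GGKF01062685.1 inside, and 1.239 for GGKF01065552.1 and 1.234 for GGKF01038927.1 outside. The lowest means inside were 5.05 CPM for GGKF01078679.1 and 5.61 CPM for GGKF01054019.1. The highest mean just below was 4.41 CPM, for GGKF01036636.1.

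Of all estimated counts in control heads, 0.607% ± 0.058 (SD, n = 4) fell on the 70 transcripts, while RNAi heads had 1.09% ± 0.0263 (SD, n = 4). Their share was 0.989% ± 0.11 in control body columns (SD, n = 3) and 1.55% ± 0.0539 in RNAi body columns (SD, n = 4). In CPM, the 4 control heads summed to 5609, 6109.9, 6879 and 5695, and the 4 RNAi heads to 10569, 10866, 11195 and 11000.5. The 3 control body columns summed to 8766, 9931 and 10974, and the 4 RNAi body columns to 15029.9, 15822, 15019 and 16063. The summed level was 1.80-fold higher after RNAi in heads and 1.57-fold higher in body columns. RNAi heads reached 1.10 times the mean of control body columns, and their range of 10569 to 11195 CPM overlapped that of the control body columns. The summed level includes 6 transcripts from a stretch of contigs numbered close together, GGKF01018198.1 to GGKF01018209.1. The sum of all contigs in that stretch had a head ratio of 0.934, and its libraries overlapped in both tissues. Most of that sum came from GGKF01018202.1, which is not among the 70. As described below, 4 of 6 such stretches met the rule as sums. The summed level of the 70 without these 6 transcripts was not computed. In bulk tissue, more cells of a type and more RNA per cell cannot be told apart.

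**Figure D1:**
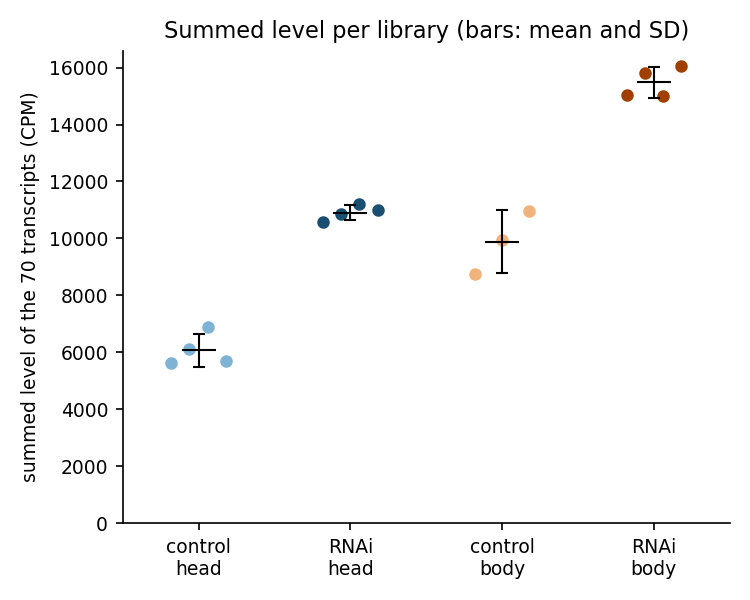
Summed level of the 70 transcripts in each library, in CPM, by group, with 1 point per library and bars for mean and SD. The 70 include 6 from a stretch of neighbouring contigs whose own sum, most of it from GGKF01018202.1 outside the 70, was not higher in RNAi heads. RNAi heads sit between 10569 and 11195 CPM, level with control body columns and above the control heads, whose highest value is 6879 CPM.

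The median ratio of RNAi to control was 1.67 in heads, with quartiles at 1.28 and 2.41, and 1.47 in body columns, with quartiles at 1.35 and 1.64. For the 13290 contigs of at least 5 CPM with a count in the controls of both tissues, the medians were 0.964 and 0.989. The ratio was at least 2 in both tissues for 8 transcripts, in the head alone for 20 and in the body column alone for 5, and it was under 2 in both for 37. It was larger in the head for 37 transcripts and larger in the body column for 33. The excess was of similar size in each RNAi library: the median over the 70 of the ratio to the control mean lay between 1.56 and 1.62 in the 4 RNAi heads, and between 1.41 and 1.51 in the 4 RNAi body columns. Of the control libraries, control head replicate 3 had the highest level for 34 of the 70 among control heads, and control body column replicate 4 for 41 among control body columns. How often these libraries were highest over all contigs was not counted.

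Since the rule used the contrasts of RNAi with control, the calls in them are given as counts only. The edgeR quasi-likelihood test with Benjamini-Hochberg (BH) adjustment called 60 of the 70 higher in RNAi heads. There it called higher 2.65% of all tested contigs and 5.7% of those of at least 5 CPM. It called 37 higher in RNAi body columns, against 1.51% of all tested contigs and 3.39% of those of at least 5 CPM. In all, 32 were called in both tissues, 28 in the head alone, 5 in the body column alone and 5 in neither. The number in body columns was 21 without control body column replicate 2, 13 without control body column replicate 3 and 60 with the DESeq2 Wald test. Calls in either direction over all tested contigs moved the same way, from 640 to 255, 103 and 2500.

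**Figure D2:**
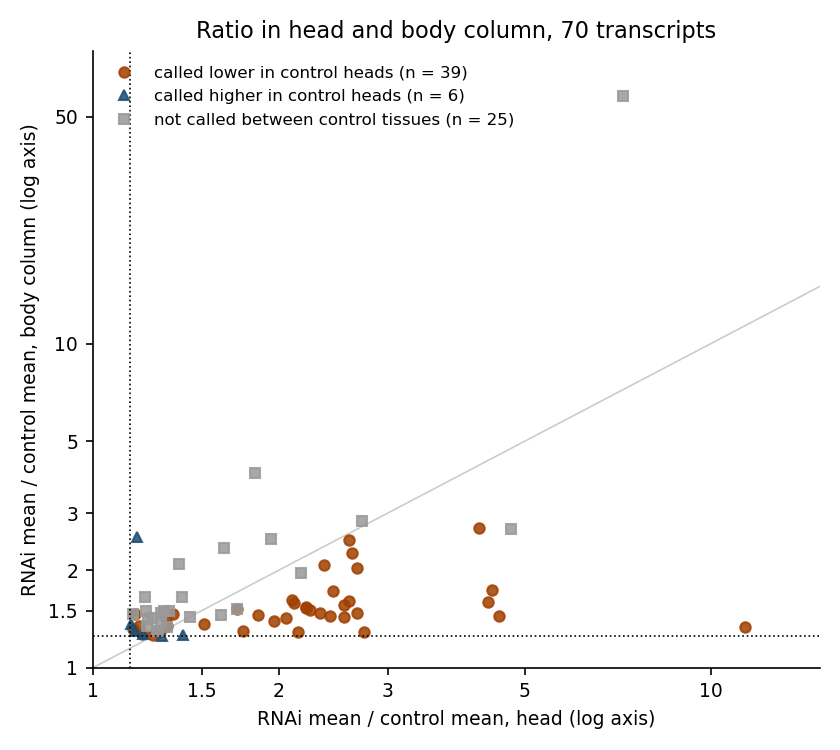
Ratio of the RNAi mean to the control mean in head (x axis) and body column (y axis) for the 70 transcripts, both on log axes. Dotted lines mark the limits of the rule at 1.15 and 1.25, the grey line marks equal ratios, and symbols show how the transcript differed between control head and control body column. The 4 transcripts with head ratios above 4 and body column ratios between 1.33 and 1.73 are called lower in control heads.

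The most abundant of the 70 was GGKF01023467.1. Its level was 219, 401, 565 and 277 CPM in control heads and 901, 965, 1145 and 899.9 CPM in RNAi heads. In body columns it was 1041, 1542 and 1494 CPM in controls and 1913, 2136, 2017 and 1945 CPM after RNAi. The ratio was thus 2.68 in heads and 1.47 in body columns, and the control heads differed among themselves by more than the RNAi heads, with an SD of 153 against 116 CPM. GGKF01023468.1 had the same order of libraries in the controls, with 97.6, 202, 283 and 123 CPM in control heads and 449, 823 and 769.8 CPM in control body columns. After RNAi it was at 458 ± 43.8 CPM in heads and 1093 ± 77.8 CPM in body columns (SD, n = 4 each), a ratio of 2.60 and 1.61.

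GGKF01031455.1 was nearly as abundant as GGKF01023467.1 and had a smaller, more even excess. Control heads had 803, 763, 682 and 689 CPM of it, and RNAi heads 959.7, 890.4, 960.4 and 1053 CPM, a ratio of 1.32. Control body columns had 998, 974 and 1166 CPM, and RNAi body columns 1443, 1430.3, 1523 and 1556 CPM, a ratio of 1.42. GGKF01018200.1 had a similar ratio in both tissues, 2.37 in heads and 2.08 in body columns. Its level went from 289, 314, 424 and 301 CPM in control heads to 795, 803, 751 and 797 CPM in RNAi heads, and from 334, 394 and 562 CPM in control body columns to 899, 1012, 783 and 877 CPM after RNAi. These are the 4 transcripts with the highest mean, and without them the 70 still summed to 4470 CPM in control and 7720 CPM in RNAi heads.

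The 4 transcripts with the largest excess in the tissue where it was smaller had means between 5.05 and 59.98 CPM. Of these, GGKF01057680.1 and GGKF01023461.1 were called between RNAi and control in neither tissue. GGKF01078679.1 was called in the body column alone and GGKF01051233.1 in the head alone. GGKF01078679.1 had 0, 1.19, 1.43 and 0.914 CPM in control heads and 2.62, 12.6, 1.49 and 8.67 CPM in RNAi heads. In body columns it had 0, 0.598 and 0 CPM in controls and 7.7, 5.8, 14.2 and 18.6 CPM after RNAi. Its body column ratio of 58.0 rests on 10.3 estimated counts in all control body columns together, and RNAi head replicate 3 lay just above the highest control head. GGKF01051233.1 had between 0.428 and 2.13 CPM in control heads and between 2.14 and 6.41 CPM in RNAi heads. Its body columns held 4.24, 7.28 and 7.24 CPM in controls and 14.6, 16.5, 19.5 and 17.1 CPM after RNAi, which gave ratios of 4.21 and 2.70.

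GGKF01057680.1, at 2.73 in heads and 2.85 in body columns, was listed at 0 in control body column replicate 4, while the other control body columns had 48.2 and 55.4 CPM. An exact 0 can be a failed estimate in such files. Its RNAi body columns had 102, 77.5, 86.9 and 126 CPM, its control heads 22.9, 48.9, 31.3 and 5.04 CPM and its RNAi heads 55.5, 89.9, 67.6 and 81.8 CPM. GGKF01023461.1 was likewise uneven in controls, with 0, 10.6, 6.32 and 1.65 CPM in control heads and 4.6, 0.635 and 10.5 CPM in control body columns. After RNAi it was even, between 19.3 and 25.4 CPM in heads and between 12.7 and 15.03 CPM in body columns.

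Some of the 70 transcripts lay close together in the numbering of the assembly. Contigs of an assembly that are numbered close together can be variants of a shared sequence, and programs that estimate counts divide reads among similar contigs. Of the 70, 23 (32.9%) had another of the 70 within 10 contig numbers, in 6 runs, and 47 stood alone. In the mirror set lowered in both tissues the share was 13.0%, in the set raised in the head and lowered in the body column it was 13.6%, and in the set lowered in heads and raised in body columns it was 14.8%. Of the counts above 0 of the 70 transcripts, 98.4% were not whole numbers, against 77.5% for the 4086 contigs whose mean lay between the quartiles of the 70 (27.4 and 159 CPM) and 62.1% in the mirror set. Only 1 of the 70, GGKF01054019.1, had whole counts in every library.

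When all contigs between the first and last of a run were summed, 4 of the 6 runs still met the rule. The run from GGKF01023461.1 to GGKF01023469.1 held 6 of the 70 transcripts, among them GGKF01023467.1 and GGKF01023468.1, and 9 contigs in all. Its sum was 424, 783, 1095 and 525 CPM in control heads and 1859, 1943, 2261 and 1796 CPM in RNAi heads, a ratio of 2.78. In body columns the sum was 1917, 2964 and 2839 CPM in controls and 3644, 4059, 3922 and 3909 CPM after RNAi, a ratio of 1.51. All 7 contigs of the run with at least 5 CPM had a ratio above 1 in both tissues, and the head ratio was larger than the body column ratio in each of the 6 members.

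The run from GGKF01027382.1 to GGKF01027397.1 had head ratios between 2.10 and 2.25 and body column ratios between 1.29 and 1.61 over its 5 members. Its sum was 166 ± 19.9 CPM in control heads and 355 ± 49.6 CPM in RNAi heads (SD, n = 4 each). In body columns it was 689.5 ± 93.7 CPM in controls (SD, n = 3) and 1016 ± 84.4 CPM after RNAi (SD, n = 4). The pairs GGKF01028537.1 with GGKF01028542.1 and GGKF01038108.1 with GGKF01038110.1 also met the rule as sums, with head ratios of 1.49 and 1.18 and body column ratios of 1.44 and 1.37.

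Summing changed the picture for the other two runs. The run from GGKF01018198.1 to GGKF01018209.1 held 6 of the 70, with head ratios between 1.63 and 2.60 and body column ratios between 1.52 and 2.49. It also held GGKF01018202.1, which averaged 10017 CPM in control and 7852 CPM in RNAi heads, a ratio of 0.784, and 3916 and 3817 CPM in control and RNAi body columns, a ratio of 0.975. GGKF01018201.1 had a head ratio of 0.617. As a whole the run was at 12587 ± 1572 CPM in control heads and 11755 ± 842 CPM in RNAi heads (SD, n = 4 each), with overlapping libraries and a ratio of 0.934. In body columns it was at 5999 ± 1588 CPM in controls (SD, n = 3) and 7546 ± 452 CPM after RNAi (SD, n = 4), also with overlap. The 6 members were thus higher in RNAi heads within a run whose sum was not, and the division of reads among its contigs was not tested. Most of the sum came from GGKF01018202.1, and whether it shares a sequence with the 6 is not known.

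In the run from GGKF01002435.1 to GGKF01002440.1 the sum was 62.2, 98.4, 104 and 65.5 CPM in control heads and 183, 214, 221 and 184 CPM in RNAi heads, a ratio of 2.43. In body columns the sum overlapped between controls (555, 493 and 476 CPM) and RNAi (517, 478, 578 and 538 CPM), with a ratio of 1.04. The remaining contig of at least 5 CPM in this run, GGKF01002439.1, went from 3.46 to 31.7 CPM in heads, where all RNAi libraries lay above all controls, and from 311 to 273 CPM in body columns. With each run counted as 1, 51 units met the rule in place of 70.

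**Figure D3:**
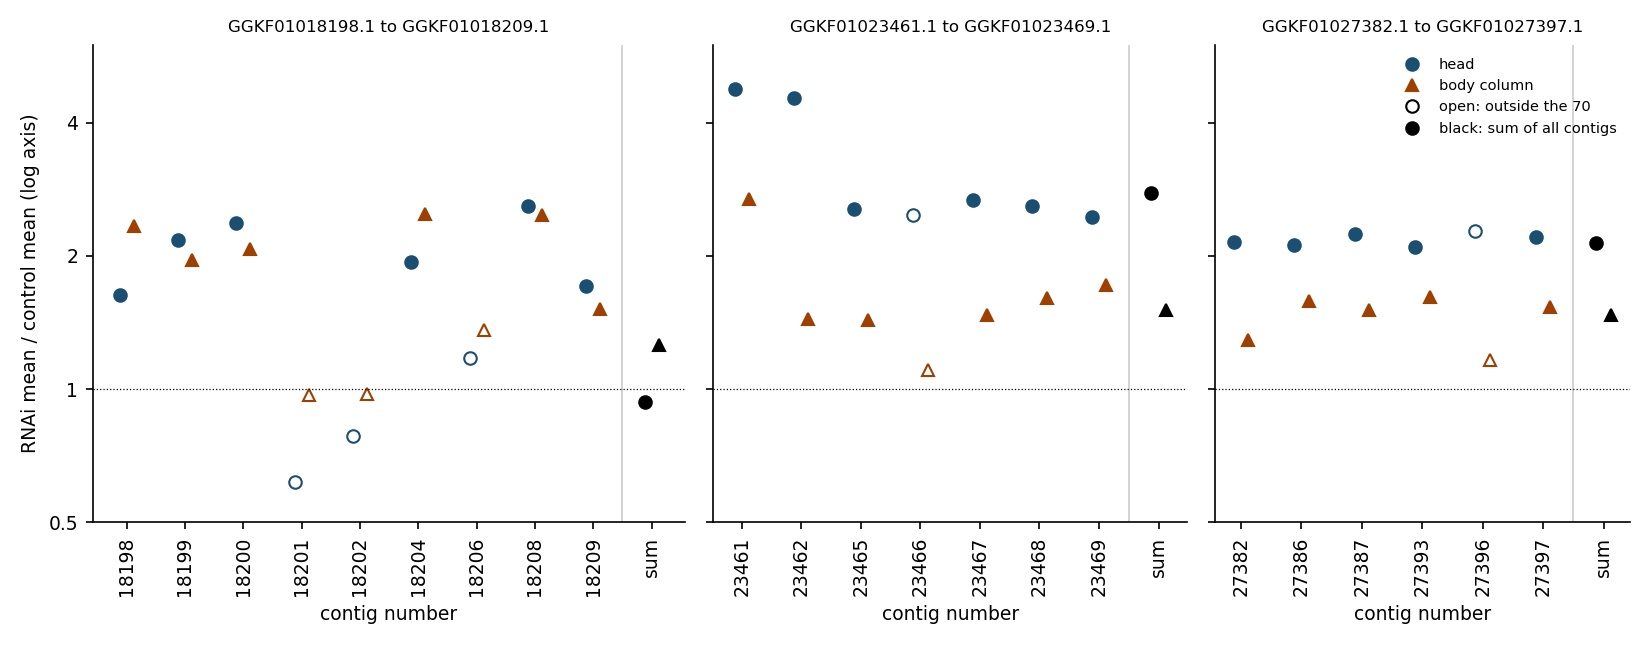
Ratio of the RNAi mean to the control mean (log axis) for each contig of at least 5 CPM in 3 runs, in head (circles) and body column (triangles). Open symbols are contigs outside the 70 and black symbols are the sum of all contigs of the run. The first run has 6 members near 2 and a summed head ratio of 0.934, while the summed ratios of the other two, 2.78 and 2.14 in heads, lie within the range of their members.

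In all, 1089 contigs outside the 70, those inside the runs included, had a number within 10 of one of the 70. Of these, 250 had a mean of at least 5 CPM. RNAi lay above control in both tissues without overlap for 9 of the 1089, 2 of them with a mean under 5 CPM. Among all 13320 contigs of at least 5 CPM, 130 met this condition, the 70 included. GGKF01033011.1, next to the member GGKF01033012.1, went from 413 ± 30.4 to 468 ± 28.9 CPM in heads (SD, n = 4 each) and from 262 ± 29.4 (SD, n = 3) to 361 ± 11.1 CPM (SD, n = 4) in body columns. GGKF01033012.1 itself went from 401 to 469 CPM in heads and from 265 to 345 CPM in body columns. In the same stretch, the 7 controls had a listed value of 0 for GGKF01033006.1, which averaged 5.06 CPM in RNAi heads and 6.56 CPM in RNAi body columns. Its mean of 3.10 CPM over all libraries kept it out of the 70.

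The rule set no head against a body column, and the difference between tissues was tested. The rule did filter on the same libraries, and asking for controls below every RNAi library favours contigs with low and even control values, so these calls and p-values are not fully independent of the choice. In control polyps, 39 of the 70 transcripts were lower in heads than in body columns and 6 were higher (edgeR quasi-likelihood test over all tested contigs, BH adjusted p under 0.05), and 25 were not called. Of all tested contigs 14.1% were called lower in the head and 14.6% higher. These shares were 27.0% and 22.9% among contigs of at least 5 CPM, and 33.5% and 27.1% among the 4086 contigs between the quartiles of the mean of the 70. The median log2 fold change of head over body column was -0.46 for the 70 and 0.07 for all tested contigs. Of the 47 transcripts outside runs, 24 were called lower and 6 higher, and of the 23 in runs, 15 were called lower and 0 higher. The test used TMM scaling, while the following counts used CPM by library total. Without overlap between libraries, control heads lay below control body columns for 30 of the 70 (22.0% of contigs of at least 5 CPM) and above them for 10 (30.7%).

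After RNAi, 34 of the 70 were called lower in the head and 7 higher by the same test, against 12.5% and 13.1% of all tested contigs and 24.1% and 22.4% of those of at least 5 CPM. Of the 39 called lower in control heads, 30 were called lower in RNAi heads as well. The 6 called higher in control heads were also called higher in RNAi heads, and none of the 70 was called with opposite signs. How many of all tested contigs were called in both states was not counted, so these overlaps have no share to compare with. The size of the tissue difference in both states is given as a description, with no test, since its change equals the RNAi effect in heads minus that in body columns, both used by the rule. It was smaller after RNAi for 50 of the 70 (71.4%) and for 57.6% of all tested contigs. For the 39 lower in control heads, the median log2 fold change of head over body column was -1.22 in control and -0.59 in RNAi polyps, and the difference was smaller after RNAi for 33. These 39 were picked for a low control value, which by itself favours a value nearer to 0 in other libraries. Of the 3591 contigs of at least 5 CPM called lower in control heads, 70.3% had a smaller difference after RNAi. Their medians were -0.64 in control and -0.47 in RNAi polyps. As these contigs were measured in the same libraries, an effect of the choice and one of RNAi cannot be told apart. The median RNAi head stood at 93.0% of the control body column for these 39, and 17 of them reached or passed the mean of control body columns.

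The ratio of RNAi to control differed between these classes, as a description, since the control heads enter both quantities. The median head ratio was 2.21 for the 39 transcripts called lower in control heads, 1.19 for the 6 called higher and 1.33 for the 25 not called. The median body column ratios of these classes were 1.46, 1.28 and 1.49.

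**Figure D4:**
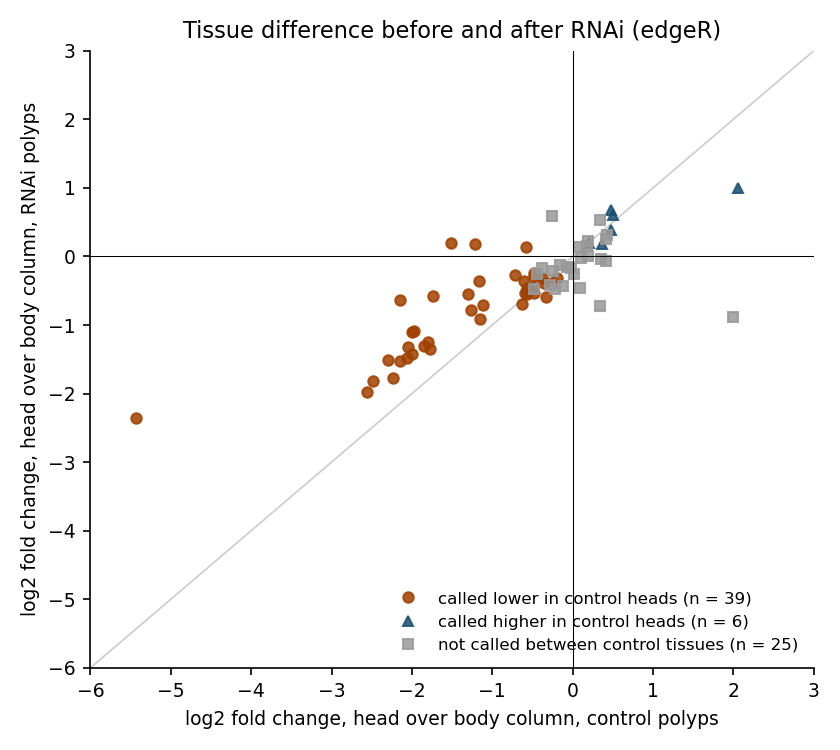
Log2 fold change of head over body column in control polyps (x axis) and RNAi polyps (y axis) for the 70 transcripts, from edgeR. The grey line marks equal differences. The 39 transcripts called lower in control heads lie mostly above it, nearer to 0 after RNAi, with medians of -1.22 and -0.59, as a description of transcripts picked for their control value.

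Among the transcripts lower in control heads, GGKF01000136.1 had 47.2, 59.0, 46.7 and 50.55 CPM in control heads against 298, 248 and 280.1 CPM in control body columns. This was a log2 difference of -2.56 (SE 0.13, edgeR BH adjusted p = 1.24e-08). RNAi heads had 106, 107, 123 and 81.6 CPM, which was 37.9% of control body columns, and RNAi body columns had 366, 388, 379.6 and 441 CPM. The groups were thus ordered from control head to RNAi head, control body column and RNAi body column, with no overlap between neighbours. The rule itself set RNAi above control within each tissue. Only the gap between RNAi heads and control body columns was not required by it. GGKF01054019.1 had 2, 14, 0 and 0 counts in control heads and 160, 146 and 141 counts in control body columns. Its log2 difference was -5.44 (SE 0.70, edgeR BH adjusted p = 3.3e-05), and -7.84 without control head replicate 2. In RNAi heads it had 45, 42, 67 and 39 counts, 27.2% of the level in control body columns. GGKF01051233.1, described above, was lower in control heads by -2.48 on the log2 scale (SE 0.42, edgeR BH adjusted p = 0.000364).

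The 2 transcripts of the run around GGKF01023467.1 that were most abundant had group means in the same order, but their RNAi heads overlapped control body columns. GGKF01023467.1 had a tissue difference of -2.0 (log2, SE 0.26) in controls (edgeR BH adjusted p = 3.78e-05), and GGKF01023468.1 one of -2.05 (log2, SE 0.30; edgeR BH adjusted p = 0.000117). GGKF01023462.1, named for a larger ratio in the head, differed from them after RNAi, a change that this choice favours. It went from 42.6, 50.6, 70.7 and 37.3 CPM in control heads to 225, 238, 244 and 207 CPM in RNAi heads, and from 104, 160.5 and 134 CPM in control body columns to 170.4, 211, 197 and 187 CPM after RNAi. The tissue difference was -1.52 with an SE of 0.20 in controls (edgeR BH adjusted p = 4.89e-05) and 0.20 with an SE of 0.19 after RNAi, where it was not called (edgeR BH adjusted p = 0.537). GGKF01031455.1 was lower in the head in both states, by -0.63 (SE 0.06) in controls and -0.69 with an SE of 0.06 after RNAi (edgeR BH adjusted p = 3.16e-06 and 7.23e-07). For GGKF01018200.1 the difference in controls was -0.48 (SE 0.17, edgeR BH adjusted p = 0.0429), and 8 of the 11 alternatives run for it did not call it, with BH adjusted p up to 0.259.

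Of the 6 transcripts higher in control heads, GGKF01035698.1 had the largest difference. Control heads had 21.6, 21.5, 21.4 and 19.5 CPM of it and control body columns 7.75, 4.44 and 1.71 CPM, a log2 fold change of 2.06 (SE 0.34, edgeR BH adjusted p = 0.000349). The value was 2.65 without control body column replicate 2 and stayed called. RNAi heads, at 22.2, 23.3, 23.8 and 29.6 CPM, lay little above control heads, while RNAi body columns had 9.79, 12.2, 15.3 and 9.81 CPM. GGKF01009141.1 was higher in control heads by 0.50 (SE 0.10) and GGKF01023818.1 by 0.48 (SE 0.07, edgeR BH adjusted p = 0.00132 and 0.000132). Both were higher in the head after RNAi too, by 0.61 (SE 0.09) and 0.68 (SE 0.07, edgeR BH adjusted p = 0.000135 and 2.4e-06).

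**Figure D5:**
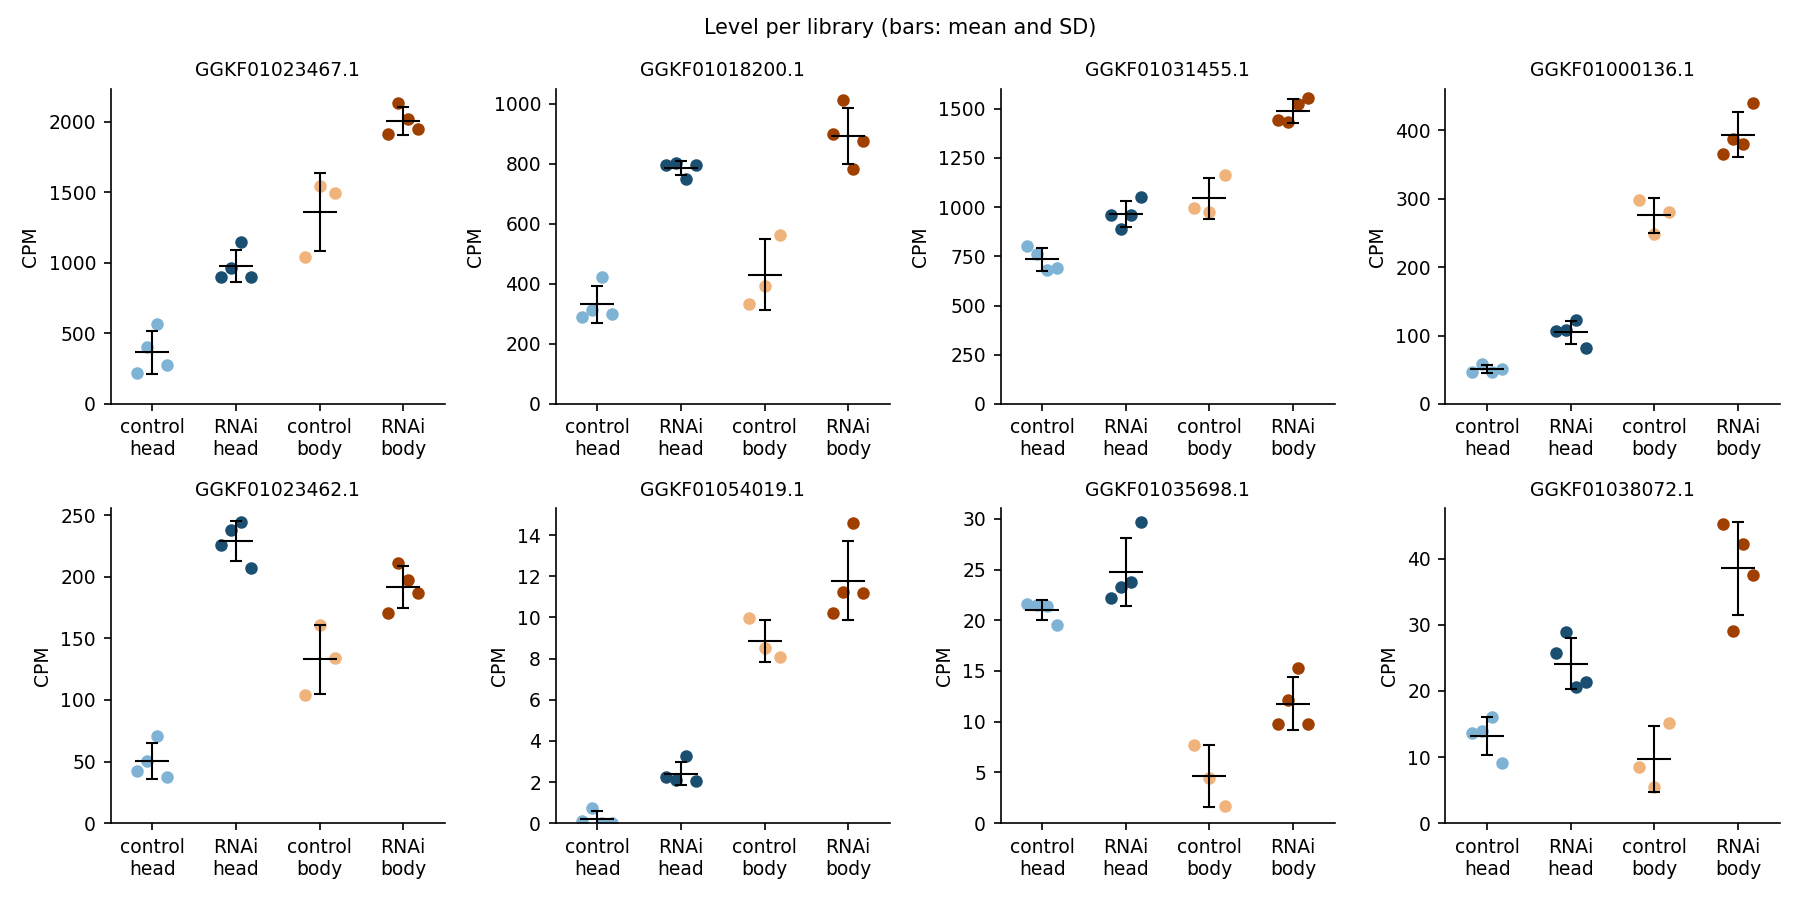
Level in CPM of 8 of the 70 transcripts in each of the 15 libraries, with bars for mean and SD (n = 4, and n = 3 for control body columns). GGKF01000136.1 is lowest in control heads and highest in RNAi body columns, GGKF01023462.1 is as high in RNAi heads as in RNAi body columns, and GGKF01035698.1 is the one shown that was called higher in control heads than in control body columns.

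The size of the RNAi effect in body column and head was compared as a difference of log2 fold changes, with no test, since the rule used both. The difference lay within 0.5 of 0 for 46 of the 70, was in favour of the head by more than 0.5 for 20 and in favour of the body column by more than 0.5 for 4. The median difference, body column minus head, was -0.08 for the 70 and 0.03 for all tested contigs. It was -3.09 for GGKF01054019.1 and -1.71 for GGKF01023462.1, the 2 that leaned most to the head. In the other direction it was 2.88 for GGKF01078679.1, with the few control counts given above, and 1.07 for GGKF01038072.1. GGKF01038072.1 had 13.7, 13.9, 16.03 and 9.13 CPM in control heads and 25.8, 28.9, 20.7 and 21.3 CPM in RNAi heads. Its body columns had 8.55, 5.42 and 15.1 CPM in controls and 45.2, 29.1, 42.3 and 37.6 CPM after RNAi. The body column was thus below the head on average in controls and above it after RNAi. This transcript was named for its larger body column ratio, a choice that favours such a shift. The tissue difference was 0.35 in controls (SE 0.29, edgeR BH adjusted p = 0.435) and -0.73 after RNAi (SE 0.25, edgeR BH adjusted p = 0.0473). The call after RNAi lay close to the limit of 0.05 and was not checked in other fits.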

How the data were processed

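Polyadenylated RNA was sequenced in 15 libraries made with a stranded Illumina TruSeq kit, per the labels' protocols. The deposited table holds expected counts, estimated by the authors per contig, not scaled to a common total. Salmon and DESeq2 1.26.0 are named in the submitters' processing notes, without a role, and settings are not given in the sources used here. Of the deposited counts above 0, 74.2% were not whole (tolerance 1e-09). CPM for the rule and all levels used the counts as deposited divided by the column sum. For tests, expected counts were rounded (no library total moved by more than 145), filtered with filterByExpr of edgeR 4.0.16 in R 4.3.3, scaled with TMM factors and fitted in 1 model with a mean for each of 4 groups (glmQLFit, glmQLFTest). P-values were BH adjusted over the 31142 contigs tested, and a BH adjusted p under 0.05 is a call. The fit was checked on simulated counts with log2 changes of at least 1, up or down, in control heads alone. Smaller changes were not simulated. Precision is set by 3 or 4 libraries per group and by depth, and counts cover counting error only. DESeq2 1.42.0 and other alternatives appear in the closing section.

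Named transcripts were those with the highest mean (4), the largest lower ratio with 0.5 CPM added (4), the largest tissue differences among calls in controls (3 in each direction), the largest differences between both ratios (2 in each direction), those at 0 in all 7 controls (0 were found) and those at each threshold (2 on each side). Contigs of runs and their neighbours were chosen after their values were seen. The members, lists and tests were chosen with earlier results of these data known. No gene list or cell type marker could be applied, because 0 IDs matched a gene table. No column was left unassigned.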

Additional observations from a re-analysis of the deposited data

Results flagged for a closer look

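Among 75 groups of 4 values looked at, 5 had 1 library far from the other three by Dixon's 95% limit, and chance flags about 1 group in 20. In control heads, replicate 4 had 136 CPM of the run from GGKF01027382.1 to GGKF01027397.1, with the others between 172 and 178 CPM. Replicate 1 had 61.0 CPM of GGKF01023818.1, with the others between 50.8 and 52.3 CPM. Replicate 4 had 19.5 CPM of GGKF01035698.1, with the others between 21.4 and 21.6 CPM. Replicate 2 had 0.753 CPM of GGKF01054019.1, with the others between 0 and 0.0952 CPM. In RNAi heads, replicate 3 had 751 CPM of GGKF01018200.1, with the others between 795 and 803 CPM.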

How the results depend on the processing

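The number of contigs that met the rule was 207 with TMM scaling, 197 with DESeq2 size factors, 24 with a ratio of at least 1.5 in both tissues and 130 with no ratio threshold, and it lay between 65 and 107 when 1 library was left out. It was 81 with a mean of at least 1 CPM, 65 with 10 CPM, 83 with no minimum, 68 without the most abundant contig in the column sums, and 51 with runs summed, a choice made after seeing the data.

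Of the 70, those called between control tissues numbered 24 with a log2 change of at least 1 required, and 39 to 46 when 1 library was left out. In RNAi polyps these numbers were 15 and 35 to 39, between RNAi and control heads 28 and 55 to 61, and between RNAi and control body columns 10 and 13 to 32. Over all tested contigs, calls in either direction between control tissues numbered 4318 with that change and 7614 to 8326 without 1 library. The fit reported had 8940. For RNAi tissues the counts were 3490, 6963 to 7447 and 7978, and for heads 391, 966 to 1228 and 1481. For body columns they were 111, 103 to 545 and 640. In body columns, 60 of the 70 were called with DESeq2, 19 with library size alone and 15 in a fit of the 2 groups alone. All tested contigs had 2500, 143 and 100 calls in either direction there, against 640 in the fit reported. Same-numbered libraries did not deviate together (r between -0.036 and 0.040 over 21 pairs, 1 of 15 libraries closest to its own number). A replicate block called 41 of the 70 in control tissues, 37 in RNAi tissues, 55 in heads and 19 in body columns. Over all tested contigs it called 8080, 7318, 987 and 101 in either direction. The cause of these moves was not tested.

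The summed level without the 4 most abundant of the 70 was 4470 CPM in control heads, 7720 in RNAi heads, 6370 in control body columns and 10000 in RNAi body columns, and with TMM scaling it was 16400 CPM in RNAi body columns. With 1 library left out it lay between 5800 and 6230, 10800 and 11000, 9350 and 10500, and 15300 and 15600 CPM in these groups. The 13 named transcripts called between control tissues kept their direction in every alternative run, and GGKF01018200.1 was the one not called in some. Each group has 3 or 4 libraries, and no detection limit was computed for rare transcripts.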
